A study of Halocynthia roretzi with 24 samples.

Results

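Among the gene models of the ascidian *Halocynthia roretzi*, 58 of 16078 were scarce in every part of the embryo at 8 cells and present at similar levels in the animal and vegetal hemispheres at 110 cells. They were selected on group means of RPKM (read number scaled to the length of the gene model and to the size of the library), each over 4 libraries. The animal, vegetal and whole means at 8 cells had to be below 1 RPKM, and the largest of the 3 means at 110 cells had to be at least 5 RPKM. The animal over vegetal ratio at 110 cells, with 1 added to each mean, had to lie above 0.5 and below 2. The rule also dropped 3 identifiers, of which 2 met these limits. Of 481 models that met the limits on level, the 58 with a ratio inside the band are called shared here, 167 with a higher ratio animal-biased and 256 with a lower ratio vegetal-biased. Because the members were chosen by these values, the difference between stages, the hemisphere ratio and the levels are descriptions that no test supports.

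RNA sequencing was carried out on animal hemispheres, vegetal hemispheres and whole embryos at 110 cells, and on the same 3 kinds of sample at 8 cells. Each of these 6 groups held 4 libraries, numbered 2 to 5, which gives 24 libraries. All embryos were wild type, of a southwestern Japanese population that was kept in culture for generations at an inland laboratory, and no group was treated. The series compares regions of the embryo and the 8-cell with the 110-cell stage. The labels do not say how hemispheres were parted or whether a number marks a separate batch of embryos, so the spread behind each p-value is that of these libraries and may be technical.

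An ascidian egg starts development on transcripts laid down by the mother, and the embryo's own genome takes over step by step during cleavage. The animal hemisphere gives rise mainly to epidermis and part of the nervous system, and the vegetal hemisphere mainly to endoderm, notochord, muscle and mesenchyme. Cell fates are set early in ascidians, and many genes that switch on during cleavage are known as regulators of single lineages. The models described here are those of the newly present ones that were not parted by hemisphere. Transcription itself was not measured, so zygotic stands only for a level below the limit at 8 cells and above it at 110 cells.

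The deposited table holds no read counts, and depth was inferred from the steps of low values. It came to 3.61 to 9.08 M reads per library with a median of 5.94 M, and 68.9% to 76.4% of low values lay within 0.1 of a whole number of reads, against 20% by chance. In a model with 0.5 kb of exons, 3 reads correspond to 0.661 to 1.66 RPKM, which covers counting error only. A mean below 1 RPKM in a short model is therefore a few reads per library at most. RPKM is a share of each library, and in bulk samples fewer cells with a transcript and less of it per cell cannot be told apart. The libraries did not keep strand, so models that overlap on opposite strands cannot be told apart in the bases they share. The median vegetal level of the animal-biased models was 7.71%, 6.3%, 7.35% and 17% of the animal level in numbers 2, 3, 4 and 5. The median animal level of the vegetal-biased models was 1.59%, 1.42%, 0% and 3.79% of the vegetal level. The share was highest in the vegetal library of number 5. These models were chosen by the same ratio, which makes low shares, and mixing of hemispheres and true low levels cannot be told apart.

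The files pair gene models with identifiers of a best match that start with KH, which they do not explain, and not with gene names. Members are therefore given by the last part of their identifier, so that S1.g15733 stands for Harore.CG.MTP2014.S1.g15733, and positions are those of the deposited annotation, on its numbered scaffolds. The 58 members lie on 43 scaffolds.

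**Figure D1:**
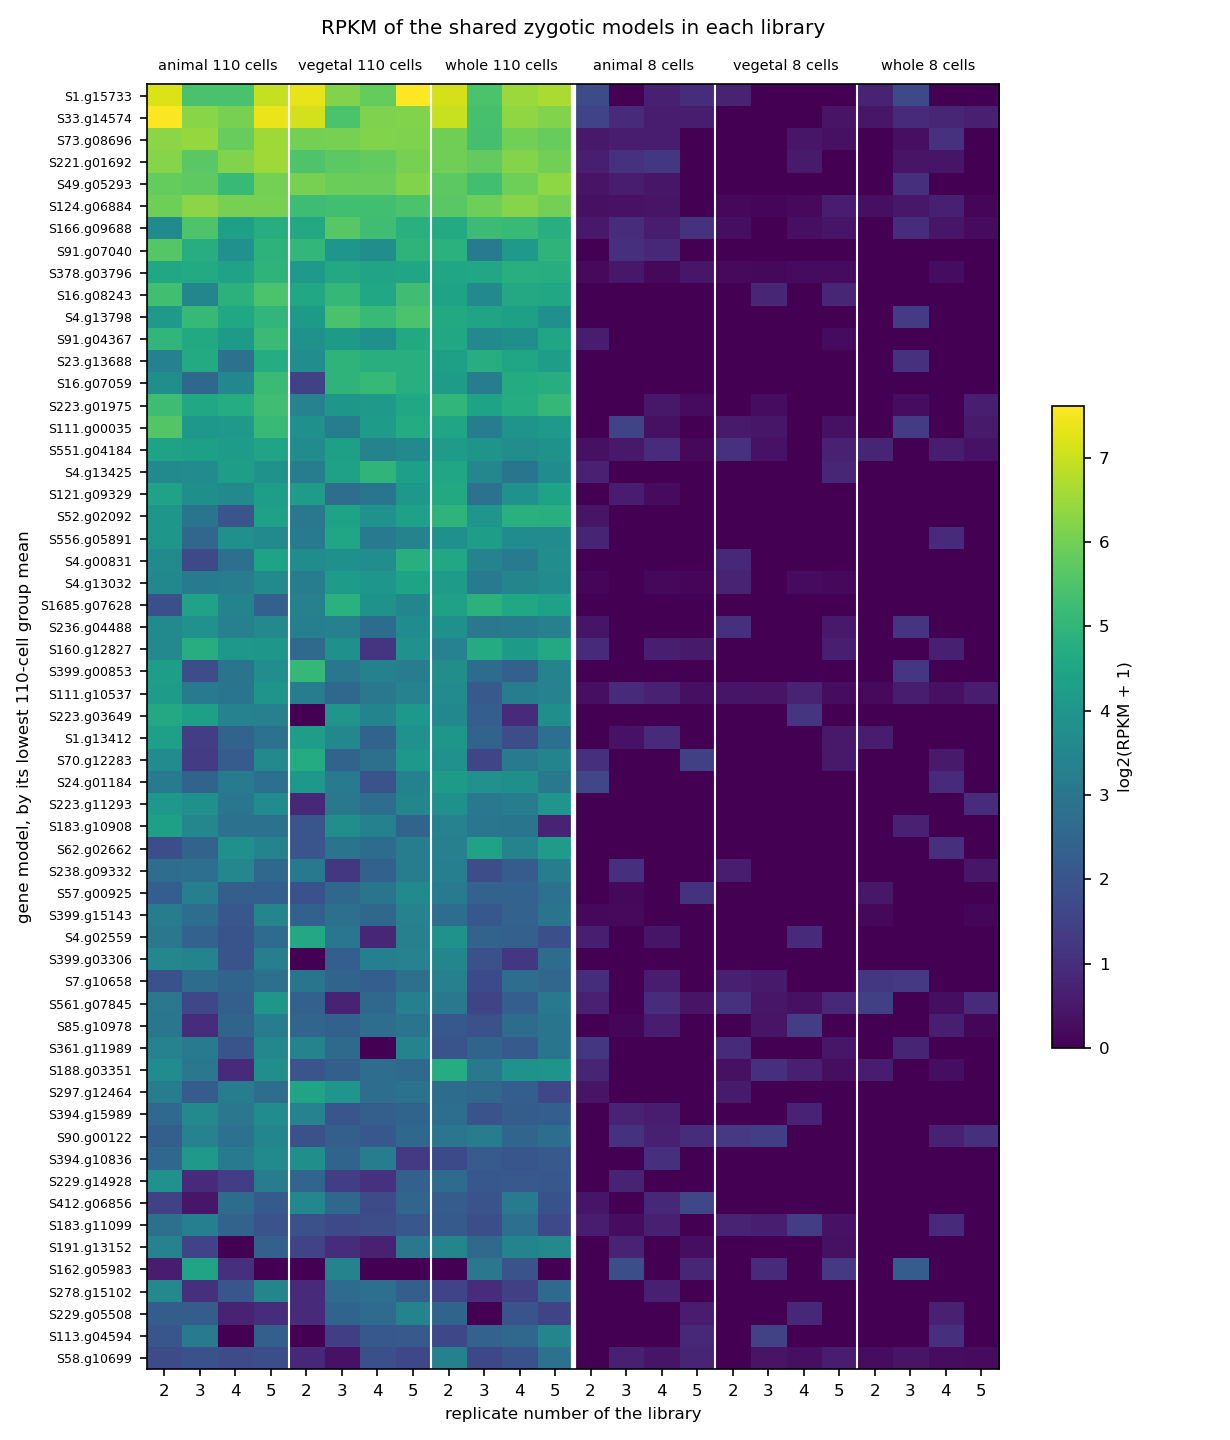
RPKM of the 58 shared zygotic models on a colour scale of log2(RPKM + 1), with 1 row per model and 1 column per library, ordered by group and replicate number. The 12 libraries of 110 cells stand left of the 12 libraries of 8 cells, and rows run from the model with the highest lowest group mean at 110 cells (S1.g15733) to those near the limit of 5 RPKM.

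Most shared models were present at moderate levels in all 3 kinds of sample at 110 cells. Their group means ran from 2.28 to 124.5 RPKM in animal hemispheres with a median of 9.91, from 1.48 to 120.3 RPKM in vegetal hemispheres with a median of 10.04, and from 2.35 to 92.3 RPKM in whole embryos with a median of 10.03. In 37 of the 58 members each of the 3 means was at least 5 RPKM, and in 5 members each was at least 50 RPKM. In 3 members, S58.g10699, S113.g04594 and S191.g13152, neither hemisphere mean reached 5 RPKM, and they entered through the whole embryos alone. The plot of RPKM by library shows the change between stages across all columns. In 43 members all 12 libraries of 110 cells stood above all 12 libraries of 8 cells, and 51 members were above 0 in all 12 libraries of 110 cells. The limits of the rule favour such a split, which was not counted over all models.

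S1.g15733 had the highest level in vegetal hemispheres. This model of 3 exon blocks lies on the plus strand of scaffold S1 from 1044659 to 1046343 and has KH.C10.360 as best match. At 110 cells it stood at 146, 42.2, 41.8 and 123 RPKM in the animal libraries of numbers 2, 3, 4 and 5. In the vegetal libraries it stood at 159, 70.6, 55.9 and 195 RPKM, and in whole embryos at 139, 42.8, 87.0 and 100.1 RPKM. Numbers 2 and 5 were high in every region and numbers 3 and 4 low, and the animal value was below the vegetal value in each number. At 8 cells it was at 0 in 6 of 12 libraries, and its highest value there was 2.38 RPKM in the animal library of number 2.

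S33.g14574 had the highest level in animal hemispheres. It lies on the minus strand of scaffold S33 from 77826 to 80823, has 11 exon blocks and carries no note. It stood at 190, 75.8, 65.2 and 167 RPKM in animal libraries, at 136, 43.0, 70.1 and 70.7 RPKM in vegetal libraries and at 125, 41.6, 80.7 and 70.8 RPKM in whole embryos, in the order of numbers 2 to 5. Number 2 was again high in each region, and the hemispheres overlapped. It lies inside S33.g14959, a model on the other strand with which it shares 90 bases of exon. That model averaged 39.1 RPKM in the animal and 28.0 RPKM in the vegetal hemisphere.

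A further 4 models stood near or above 50 RPKM in most libraries. S73.g08696, on the minus strand of scaffold S73 from 165737 to 167867 with KH.C1.596 as best match, stood at 76.7, 84.0, 56.3 and 91.7 RPKM in animal libraries and at 64.0, 65.2, 71.1 and 69.3 RPKM in vegetal ones. Its whole embryos were at 61.7, 40.7, 62.4 and 56.3 RPKM, below both hemispheres in numbers 2, 3 and 5. S221.g01692, on the minus strand of S221 from 33201 to 34422, is a model with no match. It stood at 74.3, 49.6, 71.5 and 90.6 RPKM in animal libraries, at 44.7, 50.8, 54.1 and 66.0 RPKM in vegetal hemispheres and at 61.6, 54.6, 73.0 and 62.5 RPKM in whole embryos. S49.g05293, a model of 1 exon block on the plus strand of S49 from 52040 to 52903 with KH.C14.164 as best match, stood at 55.4, 51.5, 34.2 and 64.0 RPKM in animal libraries and at 65.6, 59.5, 58.0 and 70.99 RPKM in vegetal ones. Its whole embryos stood at 51.0, 39.0, 60.5 and 79.2 RPKM, and at 8 cells it was at 0 in all 4 vegetal libraries. In these 3 models the hemispheres overlapped.

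S124.g06884 stood apart in that its hemisphere libraries did not overlap. It has 17 exon blocks on the plus strand of S124 from 75424 to 89929 and KH.C13.80 as best match. It stood at 60.3, 76.8, 66.2 and 65.1 RPKM in animal hemispheres, against 37.0, 39.0, 38.7 and 42.9 RPKM in vegetal hemispheres. Whole embryos were at 49.5, 59.9, 74.0 and 64.0 RPKM. Every animal library was above every vegetal one, and the ratio of means was 1.70.

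The next models by level stood between 19 and 35 RPKM in their group means. S166.g09688, with KH.L152.12 as best match, averaged 25.4 ± 14.4 RPKM in animal hemispheres, 34.2 ± 11.2 RPKM in vegetal hemispheres and 30.3 ± 5.85 RPKM in whole embryos (SD, n = 4 each). S378.g03796, the member with the longest exons (5595 bp), averaged 24.2 ± 4.12, 20.5 ± 3.09 and 24.1 ± 2.34 RPKM in animal hemispheres, vegetal hemispheres and whole embryos. Its libraries stayed between 16.1 and 29.8 RPKM at 110 cells, a narrow range for this group of models. S16.g08243 averaged 30.3 ± 14.6 RPKM in animal hemispheres, 29.1 ± 7.68 RPKM in vegetal hemispheres and 19.3 ± 5.52 RPKM in whole embryos, and S91.g07040 29.1 ± 14.4, 22.3 ± 9.87 and 20.6 ± 10.5 RPKM.

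At 8 cells the members were close to absent. The highest of the 3 group means at 8 cells had a median of 0.313 RPKM over the 58 members. The median member was at 0 in 9 of 12 libraries, and 45 members were at 0 in at least 6. S16.g07059, S1685.g07628 and S399.g03306 were listed at 0 in all 12. In inferred reads, a member's 12 libraries of 8 cells summed to a median of 10.5 reads, against 428 reads over the 12 libraries of 110 cells. Across members the highest single library at 8 cells reached 3.61 RPKM, which was the whole embryo of number 3 for S162.g05983.

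The limits of the rule fell within a continuum. At the 8-cell limit the members nearest inside were the abundant S1.g15733 and S33.g14574, with a highest 8-cell mean of 0.974 and 0.940 RPKM, both in animal hemispheres. Just outside were S625.g05720 at 1.01 RPKM and S113.g04864 at 1.03 RPKM. S625.g05720 averaged 40.7 RPKM in the animal and 41.1 RPKM in the vegetal hemisphere at 110 cells. At the 110-cell limit S58.g10699 with 5.07 RPKM and S229.g05508 with 5.17 RPKM were just inside, and S19.g04189 with 4.91 RPKM and S112.g05040 with 4.84 RPKM just outside. At the upper edge of the band S160.g12827 had a ratio of 1.95 and S162.g05983 of 1.91, against 2.01 for S640.g11412 and 2.05 for S116.g15514 outside it. At the lower edge S229.g05508 had 0.532 and S4.g02559 0.540, against 0.498 for S4.g11169 and 0.494 for S766.g04762. Several of these edge members were carried by few libraries. S162.g05983 reached 20.6, 9.69 and 7.06 RPKM in the animal, vegetal and whole libraries of number 3, and no library of another number was above 2.83 RPKM.

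Within the band the members leaned to the animal side a little more often than to the vegetal side. The animal mean was the higher one in 35 members and the vegetal mean in 23. The median ratio of animal over vegetal means was 1.26. The median animal minus vegetal difference of log2(RPKM + 1) was 0.30 over the members and 0.06 over all models tested. Counted within replicate numbers, the animal library was above the vegetal one in 4 of 4 numbers for 7 members, in 3 for 20, in 2 for 14, in 1 for 9 and in none for 8. The 4 animal libraries did not overlap the 4 vegetal ones in S124.g06884 and S223.g01975 alone, both with higher animal values. These counts were made for the members only, so no share over all models stands beside them. The band favours hemispheres that overlap, so these counts are descriptions. S223.g01975 stood at 37.0, 22.7, 25.1 and 37.7 RPKM in animal libraries and at 9.39, 15.4, 15.9 and 22.7 RPKM in vegetal hemispheres. With limma, 2 members were called between the hemispheres at an adjusted p under 0.05. Of all 12703 models tested, 9.16% were called in this contrast, 3.64% with higher and 5.51% with lower animal values. The rule used this contrast, so the count is no test of the members and nothing is read from it.

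**Figure D2:**
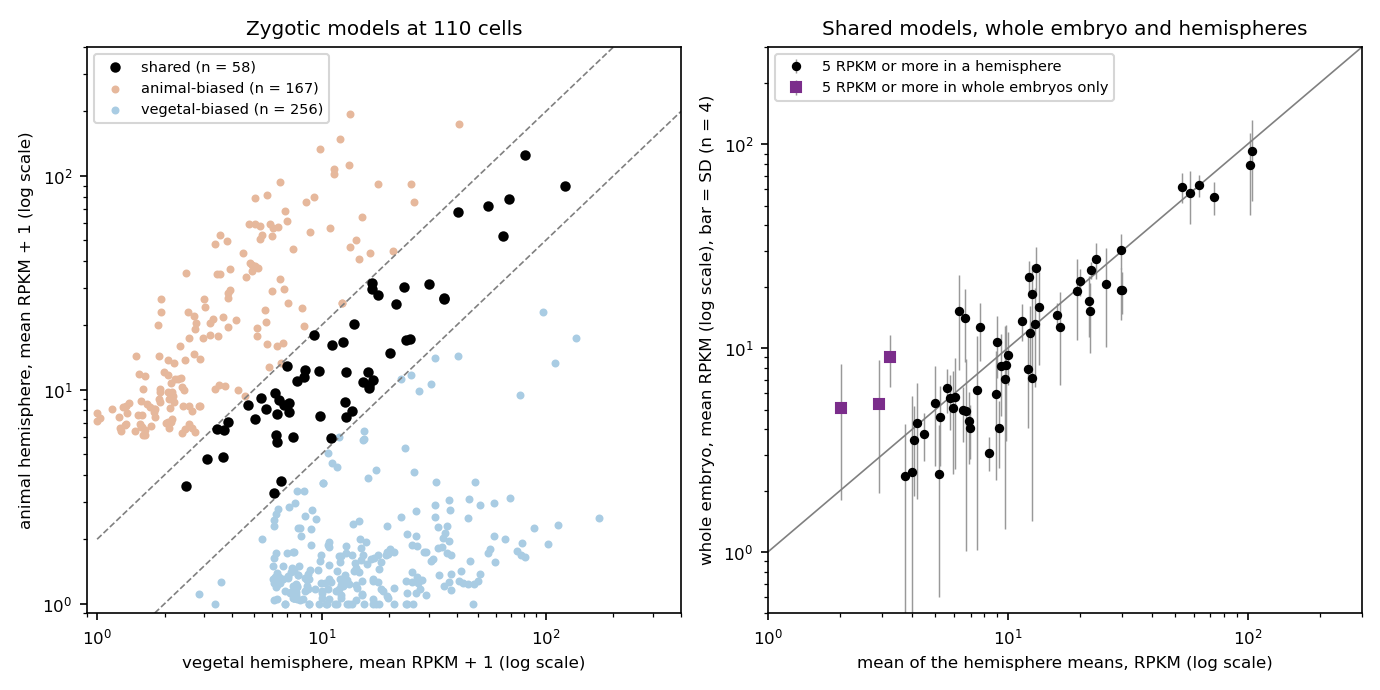
Left, animal against vegetal group mean at 110 cells, each plus 1 RPKM on a log scale, for the 58 shared, 167 animal-biased and 256 vegetal-biased models, with dashed lines at the band edges of 2 and 0.5. Right, whole-embryo mean RPKM with its SD (n = 4) against the mean of the hemisphere means for the 58 shared models on log scales, with the line of equality. Some bars run off the lower edge, and the 3 squares above the line are the models at 5 RPKM or more in whole embryos only.

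Most zygotic models lay outside the band in the plot of animal against vegetal means. To see whether the similarity of the hemispheres carried over to libraries the rule had not used, the rule was applied to 3 replicate numbers at a time and the chosen models were looked up in the number left out. With numbers 2, 3, 4 and 5 left out in turn, 67, 69, 60 and 56 models were chosen, of which 50, 51, 47 and 43 were among the 58. The 58 had been chosen with all 4 numbers, so this overlap is a description. In the number left out, 58.2%, 59.4%, 63.3% and 75% of them had a ratio inside the band. Over all zygotic models chosen in the same way, 15.5%, 16.1%, 19.1% and 17% were inside the band. Most of these models lay outside the band in the other 3 numbers by the same ratio. A lower share among them follows in part from that choice, so the shares are descriptions and no test. Fewer met every limit in that single number, 24 of 67, 20 of 69, 28 of 60 and 34 of 56. In number 5, whose vegetal library had the highest level of the animal-biased models relative to the animal library, the share inside the band was the highest, and the part of this in the result was not tested.

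Whole embryos contain both hemispheres, and the whole-embryo means of shared models were set against those of the hemispheres. The 3 members that entered through the whole embryos alone were above both hemispheres by that choice and are left out here. Of the 55 with a hemisphere mean of at least 5 RPKM, the whole mean lay between the hemisphere means in 27, above both in 9 and below both in 19. Over all 9951 such models it lay between them in 4263, above both in 3075 and below both in 2613. It lay between them in 152 of 167 animal-biased and 237 of 252 vegetal-biased models. The band brings the hemisphere means close together and leaves less room between them, so these counts are descriptions. The median ratio of the whole mean over the mean of the hemisphere means was 0.879, against 0.638 for the animal-biased models, 0.777 for the vegetal-biased models and 0.999 for all models with such a hemisphere mean. Choosing models by their hemisphere means favours high hemisphere values, so these ratios are descriptions. All 58 members passed the filter on low values, and the contrast was read for the 55 members whose place did not turn on the whole embryos at 110 cells. Of these, 0 were called with limma at an adjusted p under 0.05, against 0.653% of all models tested. The rule had used the hemisphere means, so the contrast was independent of it in part only. The median log2 difference was -0.07 over these members and its median SE was 0.33, and even a log2 difference of 1.28, that of S188.g03351, was not called. With limma and no adjustment 8 members had p under 0.05, which is 14.5% of those read, against 7.12% of all models. The fit pooled its variance over all 6 groups, and the rule held members below 1 RPKM in the groups of 8 cells. Their SE and p-values can be small in part by that choice, so these shares are descriptions and no excess is read from them.

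Of these 8 members, named after their values were seen, 5 had higher whole embryos. S188.g03351 stood at 25.4, 7.36, 14.2 and 14.2 RPKM in whole embryos, against 12.1, 7.14, 0.924 and 12.5 RPKM in animal and 2.99, 3.99, 5.57 and 5.02 RPKM in vegetal hemispheres. The whole embryo was the highest in each of the 4 numbers, and log2 whole over hemispheres was 1.28 ± 0.39 (SE, limma adjusted p = 0.199). S1685.g07628, a model of 1 exon block, stood at 19.7, 28.7, 22.1 and 19.3 RPKM in whole embryos. Its hemispheres were lower, at 2.61, 20.1, 9.80 and 4.06 RPKM in animal and 8.98, 28.0, 14.02 and 10.3 RPKM in vegetal libraries, with a log2 difference of 1.08 ± 0.33 (adjusted p = 0.204). These fits did not pair the libraries by number. With the replicate number as a block, the limma adjusted p was 0.120 for S188.g03351 and 0.064 for S1685.g07628, and 0 members were called. In a limma fit of the 110-cell libraries only, the adjusted p was 0.674 and 0.740, and again 0 members were called. S52.g02092 averaged 24.7 ± 6.73 RPKM in whole embryos, against 11.1 ± 7.53 RPKM in the animal and 15.1 ± 6.07 RPKM in the vegetal hemisphere (SD, n = 4 each). S62.g02662 and S24.g01184 had log2 differences of 1.04 and 0.71. S394.g10836, S297.g12464 and S394.g15989 had lower whole embryos, with log2 differences of -1.01, -0.89 and -0.57. S394.g10836 lies inside S394.g15989 on the other strand and shares 125 bases of exon with it. Reads in these bases cannot be assigned, so the differences of S394.g10836 and S394.g15989 cannot be taken as separate. S394.g10836 stood at 2.26, 3.52, 3.105 and 3.41 RPKM in whole embryos, against 4.96, 16.02, 7.89 and 11.1 RPKM in animal and 12.99, 4.43, 8.27 and 1.44 RPKM in vegetal hemispheres. The vegetal library of number 5 was its lowest, and without that library this member passed 0.05, as S1685.g07628 did without replicate 3 of every group or of the animal group.

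The rule averaged over replicate numbers and did not compare them, but a mean can reach 5 RPKM through 1 high number. The counts below are therefore not free of the choice of members. They include S162.g05983, which met the rule through the libraries of 1 number. A moderated F test of the number over the 12 libraries of 110 cells, with region as a covariate, called 15 of the 58 members (25.9%, limma adjusted p under 0.05). Of all models tested, 32% were called, so a difference between numbers was no more frequent among the members. In the 15 called members the numbers spanned a median of 2.90-fold in RPKM + 1, taken from means of log2(RPKM + 1). This median was 3.59-fold in called animal-biased, 3.04-fold in called vegetal-biased and 1.83-fold in all called models. The called members were highest in number 2 in 9 cases, in number 3 in 3, in number 4 in 0 and in number 5 in 3, and lowest in number 3 in 8 cases, in number 4 in 4, in number 2 in 2 and in number 5 in 1. All 4070 called models had their highest number spread evenly by comparison, with 24.6%, 23.8%, 31.2% and 20.4% in numbers 2, 3, 4 and 5. The animal-biased models that were called, 72 of 167, were highest in number 2 in 40.3% and in number 5 in 55.6%, and the vegetal-biased ones, 45 of 255 tested, in 53.3% and 42.2%. These shares were not tested against each other. The plot of RPKM by replicate number shows the 8 members with the largest F.

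**Figure D3:**
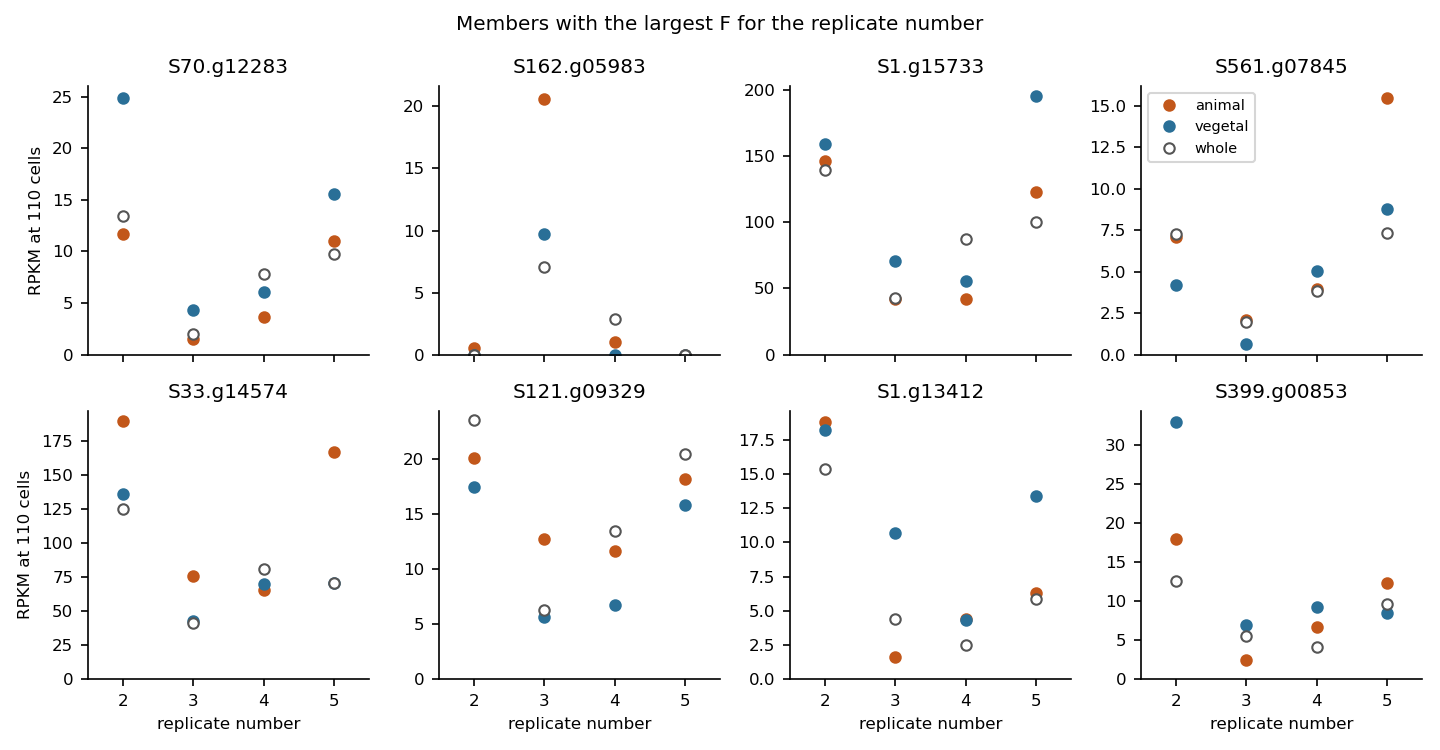
RPKM at 110 cells against the replicate number for the 8 members with the largest F for the number, with 1 point each for the animal, vegetal and whole library and a separate linear axis from 0 in each panel. S162.g05983 is high in number 3, and the other 7 have their highest point in number 2 or 5.

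S70.g12283 had the largest F, 30.8 (limma adjusted p = 0.000907). It lies on the minus strand of scaffold S70 from 226218 to 229244, with KH.C3.814 as best match. It stood at 11.7, 1.54, 3.69 and 11.03 RPKM in animal, 24.9, 4.35, 6.04 and 15.6 RPKM in vegetal and 13.4, 2.02, 7.83 and 9.77 RPKM in whole libraries of numbers 2 to 5. Every library of numbers 2 and 5 was above every library of numbers 3 and 4. Most of it overlaps S70.g01156 (226301 to 234509) on the same strand, a vegetal-biased model at 4.85 RPKM in the animal and 14.2 RPKM in the vegetal hemisphere, and shares 104 bases of exon with it. S1.g15733, whose libraries are given above, averaged 148, 51.9, 61.6 and 139 RPKM over the 3 regions in numbers 2, 3, 4 and 5 (F = 18.97, adjusted p = 0.0031). S561.g07845, on scaffold S561 from 15409 to 36970, averaged 6.19, 1.56, 4.25 and 10.5 RPKM (F = 17.5, adjusted p = 0.00376). S70.g12283 and S1.g15733 were called under all 12 alternative settings of this test.

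S162.g05983 had a different order of numbers, with 0.167, 12.5, 1.29 and 0 RPKM in numbers 2, 3, 4 and 5. Its model of 1 exon block begins at the first base of scaffold S162 and ends at 401. At 8 cells its number 3 libraries stood at 2.57 RPKM in animal hemispheres, 0.908 RPKM in vegetal hemispheres and 3.61 RPKM in whole embryos, while 7 of the 12 libraries were at 0. It met the rule through the libraries of 1 number, so its call for the number, 1 of the 15, was set by its selection and is no finding. It does not stand for a transcript of both hemispheres in the other numbers. S1685.g07628 and S166.g09688 were also highest in number 3, with averages of 25.6 and 43.4 RPKM, and lowest in number 2, with 10.4 and 19.6 RPKM. Without replicate 3 the test called 8 members, and in the hemisphere libraries alone it called 7.

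**Figure D4:**
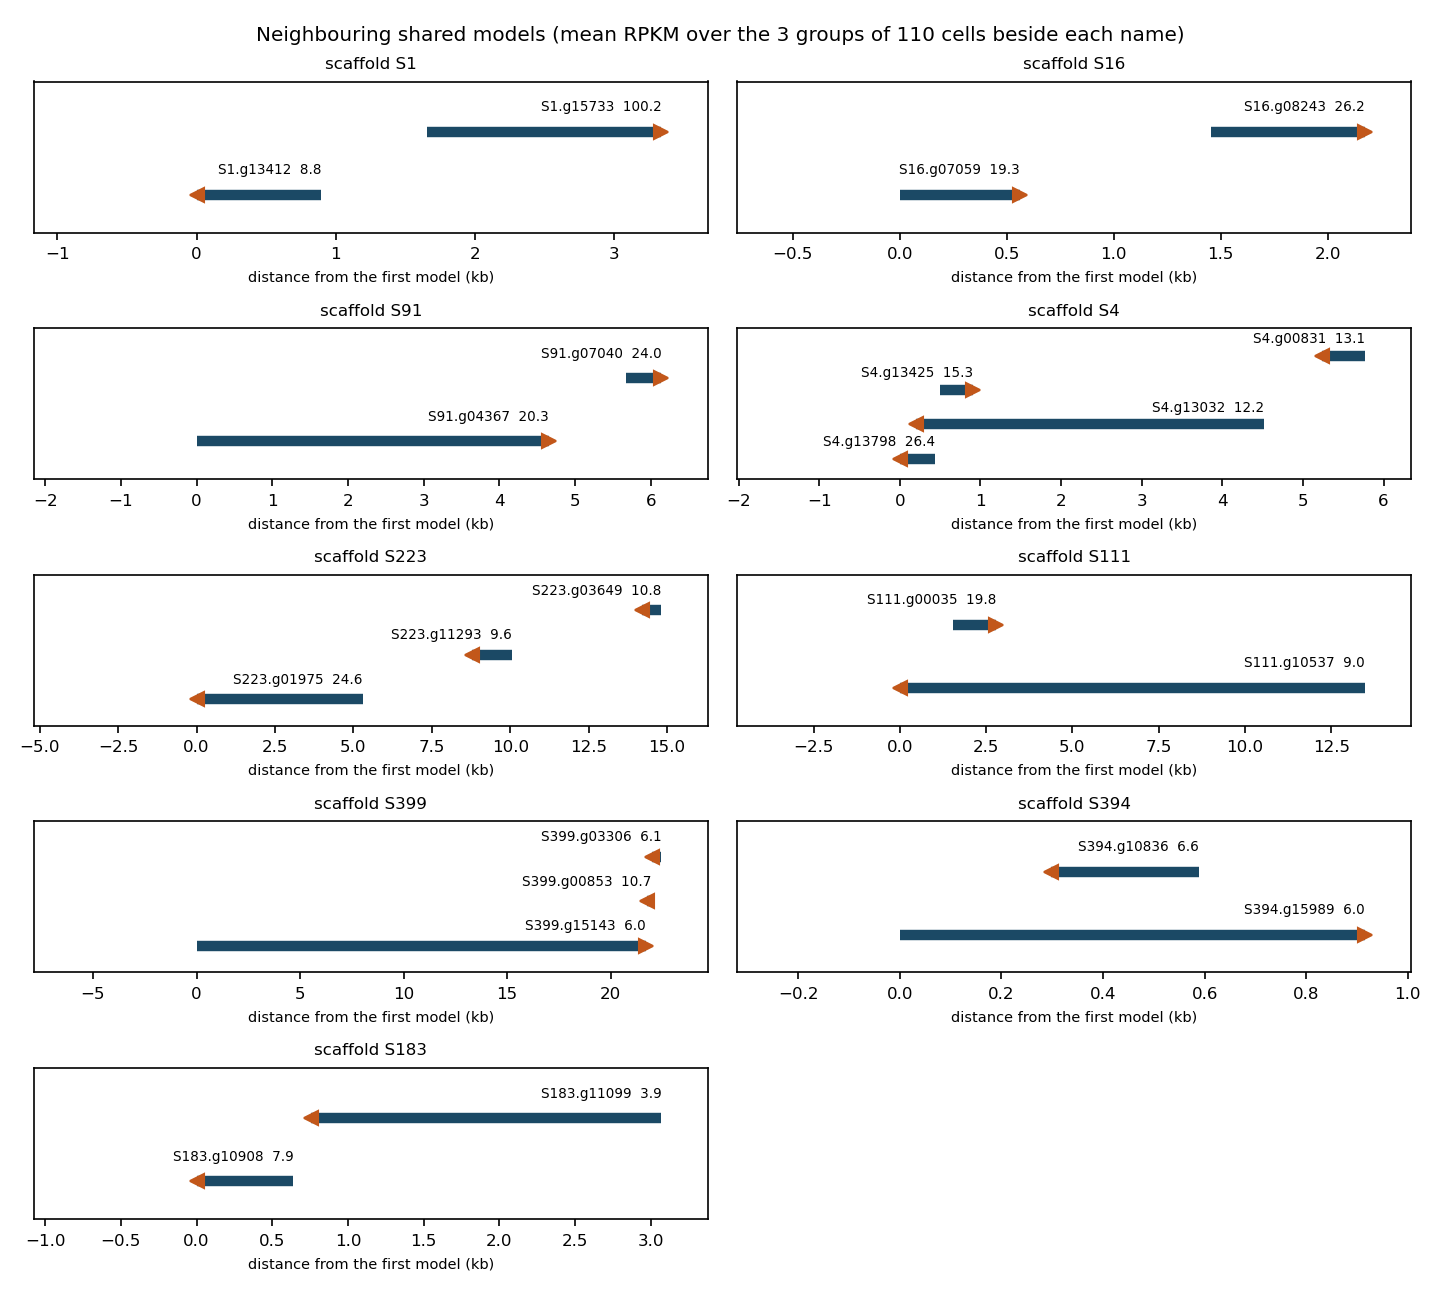
Members within 20 kb of another member, drawn to scale on 9 scaffolds, with the distance in kb from the first base of the leftmost model, an arrowhead for the strand and the mean RPKM over the 3 groups of 110 cells beside each name. Each model has a level of its own, and S111.g00035 lies within the span of S111.g10537.

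Members lay next to each other on several scaffolds. There were 18 pairs within 20 kb, which involve 22 of the 58 members on 9 scaffolds, and 10 of these pairs were on the same strand. A neighbour of the same class within 20 kb was found for 37.9% of the shared models, against 44.9% of the animal-biased and 35.5% of the vegetal-biased models. The classes hold 58, 167 and 256 models, and a larger class offers more such neighbours. These shares are therefore no measure of clustering. Across the 12 libraries of 110 cells, Pearson's r of a pair ranged from -0.21 to 0.94 with a median of 0.62. Paired values share the library, its region and its number, so r is a description. Of the 18 pairs 4 overlap, 3 of them on opposite strands.

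The map of neighbouring models shows 4 members within 6 kb on scaffold S4. S4.g13798 on the minus strand (652014 to 652446) averaged 25.8 ± 7.89 RPKM in the animal and 34.0 ± 12.2 RPKM in the vegetal hemisphere. S4.g13032 on the minus strand (652211 to 656536, KH.C14.149) averaged 9.48 ± 1.83 and 15.3 ± 5.20 RPKM, and S4.g13425 on the plus strand (652518 to 652923) 13.8 ± 3.15 and 19.2 ± 9.03 RPKM, in animal and vegetal hemispheres. S4.g00831 on the minus strand (657249 to 657780, KH.C5.32) averaged 10.1 ± 7.91 and 16.03 ± 7.11 RPKM (SD, n = 4 each). All 4 leaned to the vegetal side, with ratios of means plus 1 from 0.642 to 0.768. The next models on the same strand, S4.g11169 and S4.g01100, fell on the vegetal-biased side of the band, at 4.99 against 11.02 and at 2.36 against 7.39 RPKM in animal and vegetal hemispheres. S4.g13032 shares 131 bases of exon with S4.g13798 and 223 with S4.g13425, and reads in these bases cannot be assigned.

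The 3 members of scaffold S223 leaned to the animal side. S223.g01975 (65274 to 70571, KH.C4.260), S223.g11293 (74063 to 75320, KH.C4.492) and S223.g03649 (79474 to 80091, no match) are all on the minus strand and had ratios of 1.88, 1.84 and 1.46. S223.g11293 stood at 15.8, 13.02, 6.92 and 12.1 RPKM in animal libraries and at 0.831, 7.26, 5.75 and 10.3 RPKM in vegetal hemispheres. The values of S223.g01975 and S223.g11293 had r = 0.89 over 12 libraries, and both were lowest in the vegetal library of number 2. Other models of this scaffold name the same matches. S223.g03969, with KH.C4.260, averaged 29.2 RPKM in the animal and 4.52 RPKM in the vegetal hemisphere, and S223.g08251, with KH.C4.492, 58.0 and 18.7 RPKM.

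S111.g10537 and S111.g00035 had the highest r, 0.94. S111.g00035 (197599 to 198848, plus strand, KH.S164.13) lies inside S111.g10537 (196051 to 209520, minus strand, KH.C2.862) and shares 786 bases of exon with it, so this likeness cannot be told apart from shared reads. S91.g04367 and S91.g07040 lie 1018 bases apart on the same strand and had r = 0.77. S91.g04367 averaged 26.8 ± 8.38 RPKM in the animal and 16.9 ± 4.85 RPKM in the vegetal hemisphere (SD, n = 4 each). S1.g13412 (1043004 to 1043899, minus strand, KH.L154.7) begins 759 bases from S1.g15733, which runs the other way. It stood at 18.8, 1.63, 4.38 and 6.29 RPKM in animal and 18.2, 10.7, 4.34 and 13.4 RPKM in vegetal libraries, and both models were called for the replicate number with their highest average over the 3 regions in number 2 (r = 0.78). S16.g07059 and S16.g08243 lie 891 bases apart on the same strand with r = 0.52, and both lie inside the span of S16.g14913 without sharing exon bases. S16.g07059 stood at 12.8, 4.85, 10.7 and 35.7 RPKM in animal libraries and at 1.76, 29.8, 33.0 and 26.2 RPKM in vegetal libraries, so its order of hemispheres turned between numbers.

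Other models close by were examined because reads of a neighbour can fall into a member. Another model overlapped 21 of the 58 members, and 16 shared exon bases with one, 11 of them with a model on the other strand. A model that is no member overlapped or lay within 100 bases of 23 members, and in 10 of these it stood above the member at 110 cells. In 7 of the 10 each such neighbour had at least 5 RPKM in an 8-cell group, where the member was below 1 RPKM. S183.g10908 averaged 7.93 RPKM over the 3 regions at 110 cells and lies 31 bases from S183.g02724, which averaged 109 RPKM and reached 83.7 RPKM at 8 cells. In the other 3 of the 10 the neighbour too was low at 8 cells. S113.g04594 at 3.72 RPKM is overlapped on the other strand by S113.g04864 at 13.2 RPKM, which reached 1.03 RPKM at 8 cells. S297.g12464 at 7.45 RPKM lies 2 bases from S297.g05892 at 48.1 RPKM, which reached 2.72 RPKM at 8 cells. S62.g02662 at 9.09 RPKM lies 15 bases from the animal-biased S62.g02514 at 22.6 RPKM, which reached 0.927 RPKM at 8 cells. Whether reads of these neighbours were counted in the members was not tested. Overlaps and close neighbours were counted for the members only, so how frequent they are among all models is not known.

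As gene models the members were short. The median exon length was 616 bp in shared models, against 1212 bp in animal-biased, 1212 bp in vegetal-biased and 1419 bp in all models, and the median number of exon blocks was 3, against 5, 5 and 6. Exons summed to under 500 bp in 21 of the 58 (36.2%), against 15.6% of animal-biased, 14.5% of vegetal-biased and 18.1% of all models. The note gave a KH match for 38 members (65.5%) and no match for 18 (31.0%), and 2 had no note. No match was given for 17.96% of animal-biased, 11.7% of vegetal-biased and 16.3% of all models. A KH match was given for 76.05%, 80.86% and 71.13% of them. In the group where the model was highest, the median coefficient of variation over 4 libraries was 44.2% for shared models, against 56.8% for animal-biased, 43.6% for vegetal-biased and 31.1% for all models.

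Several members shared their best match with models of other classes or levels. For 24 members the best match was also named for other models, 69 in all. Of these 69 only 2 were members, S183.g10908 and S183.g11099, which lie side by side on the same strand and both name KH.C3.511, and 2 were animal-biased and 2 vegetal-biased. At least 1 RPKM in an 8-cell group was found for 33 of the 69, and 30 were below the limits at both stages. KH.C10.360, the match of S1.g15733, is also that of S1.g00418 (1039565 to 1040155) on the same scaffold. S1.g00418 averaged 88.5, 78.6 and 82.1 RPKM in animal hemispheres, vegetal hemispheres and whole embryos at 110 cells, and 155, 146 and 141 RPKM at 8 cells. The models thus had similar levels at 110 cells, while at 8 cells one was abundant and S1.g15733 averaged 0.974, 0.171 and 0.706 RPKM.

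Other matches were shared with a model abundant at both stages, at a higher level than the member. KH.C11.46 is the match of S90.g00122, which averaged 7.48 RPKM in the animal and 3.69 RPKM in the vegetal hemisphere at 110 cells, and of S48.g09619, which averaged 255 and 221 RPKM there and 329 and 317 RPKM at 8 cells. KH.C5.592 is the match of S16.g08243 and of S80.g09064, which averaged 122 RPKM in animal hemispheres at 110 cells and 106 RPKM at 8 cells. KH.C12.403 is the match of S278.g15102 and of S50.g14944, at 154 RPKM in animal hemispheres at 110 cells and 126 RPKM at 8 cells. The matches KH.C10.360, KH.C1.403 and KH.C11.46 recur side by side on scaffolds S90 and S556, where S90.g00122 and S556.g05891 are members. The match KH.C2.644 of S1685.g07628 is shared with 2 animal-biased models, S17.g01902 at 34.3 RPKM in the animal and 1.49 RPKM in the vegetal hemisphere and S145.g14157 at 7.79 and 0.898 RPKM. KH.C3.814, the match of S70.g12283, is shared with the vegetal-biased S425.g09009 at 1.54 RPKM in the animal and 31.0 RPKM in the vegetal hemisphere. How reads with several matches were placed is not given in the sources used here, so levels of models with near copies are uncertain.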

How the data were processed

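Total RNA was sequenced from 24 libraries of *Halocynthia roretzi*. Per the labels' protocols, libraries came from an Illumina TruSeq RNA kit and these 24 were not strand specific. HISAT2 was used, with no version, per the submitters' processing notes. Genome build and read counter: not given in the sources used here. Values were deposited by the authors as RPKM, for 16078 gene models and an annotation of 16082 models, and 1 model of the table has none.

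The 58 members and all lists were chosen with earlier results of these data known. RPKM has no read counts, so log2(RPKM + 1) was tested with limma (version 3.58.1, R 4.3.3) over 12703 models that reached 1 RPKM in 4 or more libraries. The prior variance had a trend, and p-values were two-sided, adjusted by Benjamini-Hochberg over all models tested, with a threshold of 0.05. Contrasts came from 1 fit of 6 groups. The fits were also run on simulated data with independent libraries. Deviations shared by same-numbered libraries were not simulated, so these runs do not cover them. RPKM times exon length summed to 1.01 to 1.03 M per library.

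Members were named by level, F for the number, nearness to a limit, shared match or neighbours. The others named (S121.g09329 is in a plot only) were chosen after their values were seen. Of 36 gene names listed for regulators and tissue markers, 0 occurred in any note, so cell identity was not checked by markers. Deviations of same-numbered libraries of 110 cells from their group means correlated at 0.389 to 0.507 across models, each over 0.1, so the numbers from the labels were taken to pair the libraries. Alternatives were other pseudocounts, filters, scalings, limits and priors, and the replicate number as a block. Fits of the 110-cell libraries only, and without each library or number, were also run.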

Additional observations from a re-analysis of the deposited data

Results flagged for a closer look

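In each group of 4 libraries of 110 cells, of the 32 members named by rule, the highest or lowest library was set against the others. In 4 of 96 groups its gap to the nearest library, as a share of the whole range, exceeded Dixon's 95% critical value. Chance gives about 1 in 20 groups, which is 4.8 of 96, so the number of such groups is not above it.

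S162.g05983 was at 20.62 RPKM in the animal library of number 3, against 0 to 1.03 RPKM in the other animal libraries, and at 9.693 RPKM in the vegetal library of number 3, against 0 in the other vegetal libraries. S4.g00831 was at 26.68 RPKM in the vegetal library of number 5, against 12.02 to 13.1 RPKM in the others. S4.g02559 was at 14.01 RPKM in the whole embryo of number 2, against 2.60 to 4.36 RPKM in the others, and its vegetal library of number 2 was also its highest, at 23.3 RPKM.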

How the results depend on the processing

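The number of members, 58, became 100 with a 110-cell limit of 3 RPKM, 37 with a limit of 10 RPKM and 36 with a band of 1.5-fold. No member was called for whole embryos against hemispheres under any scaling, filter or pseudocount, and leaving out libraries or numbers gave 0 to 1. Between animal and vegetal hemispheres 2 members were called, 0 with a pseudocount of 0.1, 5 with a pseudocount of 5, 1 after quantile normalization and 1 to 4 when libraries or numbers were left out. For the replicate number 15 were called, 7 in hemisphere libraries alone and 8 to 16 when a number was left out. With the replicate block, which the paired numbers allow, 0 and 2 members were called, and over all models 177 in place of 83 for whole embryos against hemispheres and 1824 in place of 1163 for animal against vegetal hemispheres. With the 110-cell libraries only, 0 and 2 members were called, and over all models 30 and 888, in the same order of contrasts. The causes were not tested, beyond the smaller number of libraries where some were left out. The log2 differences of the 8 members of unadjusted p under 0.05 kept their sign in all 200 values under alternatives. Short exons and few reads limit what can be seen in single members.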
